A study of Mus musculus with 20 samples.

Results

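The genes described here are 38 genes that build or maintain the sarcomere, the contractile unit of a heart muscle cell, out of the 48795 genes in a table of expression values from embryonic mouse hearts. They were chosen as a list of symbols, and Ensembl identifiers were matched to the symbols through the mouse annotation. All 38 were found, and all 38 passed the filter on low values in every comparison, so none had to be left out. They were sorted by structure into 4 actin and tropomyosin genes, 4 troponin genes, 3 genes of the pointed end of the thin filament, 5 genes of the thick filament, M-band and titin, 10 genes of the Z-disc core, 5 genes of filament linkers and adhesion sites, and 7 genes of assembly, chaperones and turnover.

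Hearts were collected at E13.5 (E, embryonic day) from 2 mouse strains that model Down syndrome. Each strain carries an extra copy of a segment of mouse chromosome 16, written Dp(16Mir802-Zbtb21)3TybEmcf for Dp3Tyb and Dp(16Cbr1-Fam3b)1Rhr for Ts1Rhr, and the Dp3Tyb segment contains the shorter one of Ts1Rhr. The extra copy is inherited, so every cell of the animal carries it. Each strain was compared with its own wild-type (WT) littermates, which gave 4 groups of 5 whole hearts: Dp3Tyb, WT of the Dp3Tyb cohort, Ts1Rhr and WT of the Ts1Rhr cohort. The labels of all 5 Dp3Tyb hearts name heart defects. In Ts1Rhr the labels name defects for replicates 1 and 2 and no defects for replicates 3 to 5, and all 5 were kept as 1 group by genotype. The study's text treats Ts1Rhr as a strain without such defects, so these labels are in doubt.

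In a sarcomere, thin filaments of actin are anchored in the Z-disc by alpha-actinin and slide along thick filaments of myosin, which are held together at the M-band. Tropomyosin and the troponin complex (the calcium-binding subunit troponin C, the inhibitory subunit troponin I and the tropomyosin-binding subunit troponin T) switch the thin filament on when calcium rises. Titin spans from Z-disc to M-band as a molecular spring. In the embryonic heart several of these proteins exist in a foetal and an adult form. The slow skeletal troponin I (Tnni1) precedes cardiac troponin I (Tnni3), and skeletal alpha-actin (Acta1) accompanies cardiac alpha-actin (Actc1).

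The actin pair is shown first because results below turn on its ratio, and because reads can be told apart only where the genes differ. Actc1 (chr2:113876266-113884043) and Acta1 (chr8:124618501-124623661), both on the minus strand of GRCm39, each have a coding sequence of 1134 bases, or 377 codons without the stop. The coding sequences were 86.2% identical, with 157 mismatches. No stretch of 50 bases was shared between their canonical transcripts, nor between those of the other 6 pairs of related members examined, whose coding identity ran from 59.97% (Myom1 and Myom2) to 78.5% (Tpm1 and Tpm2). The first 60 coding bases, with the 9 mismatches between the genes in capitals, read 5′ to 3′:
Actc1: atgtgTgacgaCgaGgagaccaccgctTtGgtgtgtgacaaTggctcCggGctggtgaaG
Acta1: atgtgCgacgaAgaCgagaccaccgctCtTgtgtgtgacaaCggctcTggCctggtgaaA

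Both actin genes also carry a CArG box, the binding motif of serum response factor, in the 250 bases before the start given by RefSeq (GRCm38.p6). The windows lie on the minus strand at chr8:123894776-123895025 for Acta1 and chr2:114052876-114053125 for Actc1, and are printed 5′ to 3′ with the CArG box in capitals:
Acta1: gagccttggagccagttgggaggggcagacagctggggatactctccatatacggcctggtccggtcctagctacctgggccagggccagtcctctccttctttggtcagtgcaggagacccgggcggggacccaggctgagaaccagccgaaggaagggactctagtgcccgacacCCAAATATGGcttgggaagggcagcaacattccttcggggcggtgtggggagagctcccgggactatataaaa
Actc1: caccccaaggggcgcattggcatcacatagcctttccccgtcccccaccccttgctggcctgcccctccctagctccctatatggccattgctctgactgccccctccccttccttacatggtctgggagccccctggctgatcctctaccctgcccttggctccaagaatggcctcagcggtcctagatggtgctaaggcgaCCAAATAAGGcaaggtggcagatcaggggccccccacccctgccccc
Promoter windows of 300 bases (250 before to 50 after the start) were given for 31 of the 38 members, the others being Cryab, Lmod3, Myom2, Nexn, Tcap, Trim55 and Xirp1. Motifs were searched on either strand of the 250 bases before the start only, in the first listed window of each gene. A CArG box was found in 5 of the 31 (16.1%: Acta1, Actc1, Ldb3, Myl3 and Myom1) and in 1.40% of all 27025 windows. A MEF2 site was found in 5 (16.1%: Mybpc3, Myoz2, Synpo2l, Ttn and Xirp2), against 3.01% of all windows. The letters TATAAA, the core of a TATA box, were found in 3 (9.68%: Acta1, Smyd1 and Trim63) and in 13.0% of all windows. The letters CATTCC, the core of the motif bound by TEAD factors, were found in 10 (32.3%) and in 12.6% of all windows. A MEF2 site and TATAAA can cover the same letters.

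The 20 libraries held 6.60 to 19.6 M reads (mega, M), of which the 38 members took between 2.28% and 3.18%. The share of reads from genes encoded by the mitochondrial genome (the mitochondrial share) ran from 4.85% to 19.5%. It was over 10% in 7 libraries, namely WT of the Dp3Tyb cohort replicate 5, Dp3Tyb replicate 5, WT of the Ts1Rhr cohort replicates 1, 2 and 4, and Ts1Rhr replicates 1 and 2, and between 4.85% and 7.17% in the other 13. The Ts1Rhr libraries over 10% are the same 2 hearts whose labels name defects, so the label, if right, and the share cannot be told apart within that group. All 25 cardiomyocyte markers outside the list had a mean of at least 10 (for example Myh6 at 51405 to 86874). Of 17 skeletal muscle markers 10 had a mean of at least 10, and the summed level of all 17 was 1603 to 3459 in WT of the Dp3Tyb cohort, 1222 to 2077 in Dp3Tyb, 1337 to 3234 in WT of the Ts1Rhr cohort and 1467 to 2031 in Ts1Rhr. Muscle creatine kinase (Ckm) is 1 of the 17 and lay at 722 to 2744 over the 20 hearts. It made up a large part of these sums, which therefore do not measure skeletal muscle. WT of the Dp3Tyb cohort replicate 1 stood apart in other markers of the list, with embryonic myosin Myh3 at 931 against at most 77.4 elsewhere and Myod1 at 23.2 against 0 to 10.9 elsewhere. Skeletal muscle also expresses Acta1, and its fold change in Dp3Tyb is given with and without this library.

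Levels below are normalised read counts, that is, reads divided by a factor for each library. To compare genes with each other they were also divided by the length of the canonical transcript in kilobases (kb). By that measure the thin filament led the order. The mean over all 20 hearts was 26982 per kb for Tnnt2 (cardiac troponin T), 25939 for Actc1, 15419.9 for Tnnc1 (troponin C), 14304 for Tpm1 (tropomyosin) and 13646 for Myl3 (a myosin light chain). Tnnt2 ranged from 16802 to 48562 per kb and Actc1 from 19830.3 to 35056, so the order of these 2 was not separated by their spread, and per kb of coding sequence Actc1 came before Tnnt2. The next were Tnni1 at 9673, Ankrd1 (a stretch-responsive repressor bound to titin) at 6289, Tnni3 at 6189, Mybpc3 (myosin-binding protein C, which tethers thick to thin filaments) at 5863 and Csrp3 (a Z-disc LIM protein) at 5121. At the low end were Lmod3 (a leiomodin, which nucleates actin) at 141, Ttn at 127, Myom2 (an M-band protein of mature muscle) at 43.8 and Xirp2 at 5.91 per kb. The low place of Ttn is on a scale per length, since its reads were spread over a transcript far longer than any other here. Xirp2 rested on 36 to 98 reads per library.

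**Figure D1:**
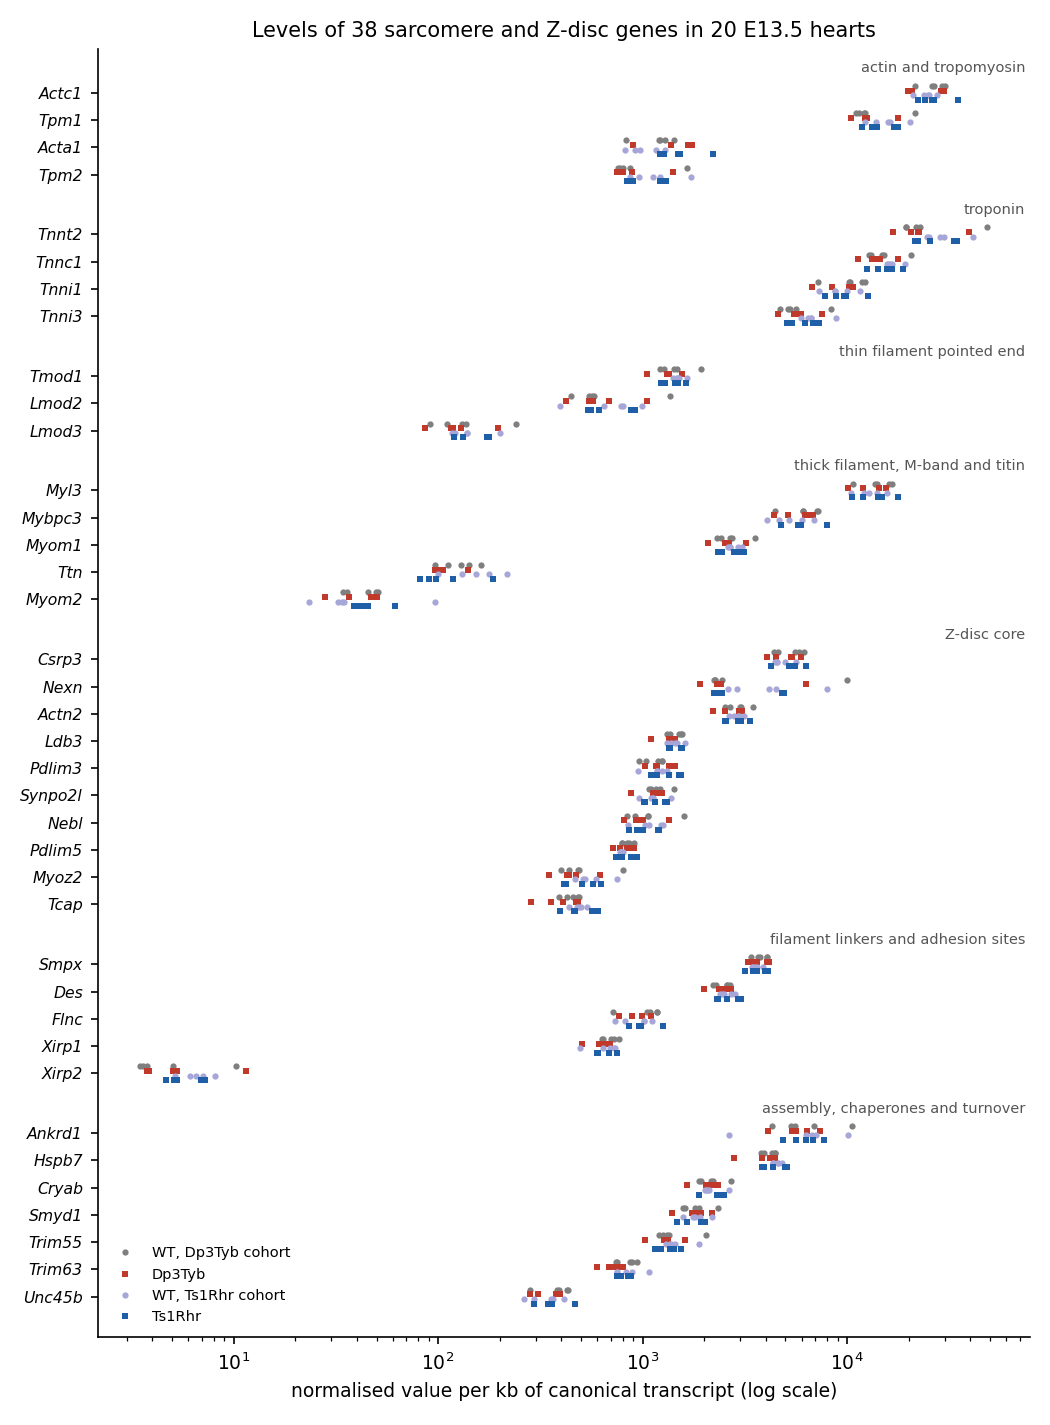
Level of each of the 38 members as normalised read counts per kb of canonical transcript (log axis), with 1 point for each heart, coloured by group, and members ordered within their structure. Tnnt2 and Actc1 lead with means of 26982 and 25939 per kb and Xirp2 is lowest at 5.91, and the 4 groups lie among each other in each row.

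Members differed in how much they varied from heart to heart. Pdlim5 and Smpx, proteins of the Z-disc and of adhesion sites, spanned 1.31-fold and 1.32-fold between the lowest and the highest of 20 hearts. Nexn (nexilin, an F-actin-binding Z-disc protein) spanned 5.23-fold, Myom2 4.11-fold, Ankrd1 3.98-fold, Lmod2 3.46-fold and Xirp2 3.28-fold.

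The first comparison asked whether sarcomere genes are expressed at another level in Dp3Tyb hearts than in their WT littermates. No member passed the test in Dp3Tyb hearts (limma on log2 of the value plus 1, Benjamini-Hochberg adjustment over all genes, threshold 0.05), and the smallest adjusted p was 0.99996. Over all 14763 genes tested 0.0542% passed. At an unadjusted p under 0.05 there was 1 member, Trim63, against 2.80% of all genes, and edgeR and DESeq2 on the recovered reads also called 0 members, though DESeq2 left the adjusted p of Nexn undefined. The groups overlapped for every member, against 0.975% of all genes whose groups did not.

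The log2 fold changes leaned low without passing. They were below 0 for 34 of 38 members, with a median of -0.09, against 51.1% of all genes and a median of -0.0027. By structure, 3 of 4 actin and tropomyosin genes, 3 of 4 troponin genes, 3 of 3 pointed-end genes, 5 of 5 thick filament, M-band and titin genes, 9 of 10 Z-disc genes, 4 of 5 linker genes and 7 of 7 assembly and turnover genes were below 0. Structure medians lay between -0.12 (assembly and turnover) and -0.03 (linkers). The lean was smaller without either of 2 hearts. Without WT replicate 5, the heart with a mitochondrial share of 19.5% and the fewest reads, 19 of 38 were below 0 and the median was 0.00099. Without Dp3Tyb replicate 4, the heart with the lowest mean log2 level of the cardiomyocyte markers of all 20 (11.55, against up to 12.08), 23 of 38 were below 0 and the median was -0.01. Without any other single heart 32 to 35 of 38 were below 0. With the mitochondrial share as a term in the fit 34 of 38 were below 0 and the median was -0.08, and without both libraries over 10% these were 28 of 38 and -0.06. With weights per library they were 23 of 38 and -0.03. The marker lists of cell types stood beside this lean as follows. The summed level of the 25 cardiomyocyte markers was 283599 to 400422 in Dp3Tyb and 320541 to 469125 in WT. That of 10 mesenchyme and fibroblast markers was 114509.6 to 145845 in Dp3Tyb and 88474 to 131002 in WT, and that of 8 macrophage markers 1649 to 1989 and 1151 to 1895. In the same order, 10 endothelial markers had 18409 to 21858 and 19069.5 to 22381, and 8 smooth muscle markers 26768 to 29384 and 28526 to 29500.4. The 8 epicardial markers had 4736 to 5876 and 5065 to 5458, and the 8 erythroid markers 46569.6 to 84285 and 35306 to 72079. The 8 lung and foregut markers had 98.8 to 711 and 7.61 to 559. None of these markers was at 0 in all libraries, and the ranges of the groups overlapped for each list. With the mean level of the cardiomyocyte markers as a term in the fit, 28 of 38 members were below 0 and the median was -0.05. These markers include the sarcomere myosins Myh6, Myh7, Myl2, Myl4 and Myl7, so their level is not independent of sarcomere expression. The part of the other lists in the lean was not tested. In bulk tissue, fewer cardiomyocytes and less RNA per cardiomyocyte cannot be told apart.

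Trim63 (MuRF1, a ubiquitin ligase that tags sarcomere proteins for breakdown) had the smallest p in Dp3Tyb. It lay at 989, 1109.6, 1054, 866 and 1158 in Dp3Tyb replicates 1 to 5 and at 1082, 1249, 1073, 1277 and 1351 in their WT littermates. The 3 lowest hearts were Dp3Tyb and the 3 highest were WT, with the groups overlapping in between. The log2 fold change was -0.22 ± 0.10 (SE; 95% interval -0.43 to -0.01, unadjusted p = 0.0417, adjusted p = 0.99996), on group means of 1036 ± 114 and 1206 ± 124 (SD, n = 5). With any 1 heart left out it stayed between -0.26 and -0.16, and without Dp3Tyb replicate 4 the unadjusted p was 0.106. In the Ts1Rhr cohort Trim63 lay at 1269, 1091, 1223, 1082 and 1135 in Ts1Rhr and 1083, 1079.5, 1201, 1280.5 and 1559.8 in WT, a log2 fold change of -0.09 ± 0.10, and the groups overlapped through most of their range.

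Acta1 was one of 4 members above 0 in Dp3Tyb. It lay at 2744, 2868, 2849, 2283 and 1476 in Dp3Tyb and at 2121, 2014, 1985, 2339 and 1371 in WT. The 3 highest hearts were Dp3Tyb, while replicate 5 of each genotype was the lowest of its group, and these 2 hearts had the mitochondrial shares over 10%. The means were 2444 ± 591 and 1966 ± 360.5, and the log2 fold change was 0.29 ± 0.20 (95% interval -0.14 to 0.73, unadjusted p = 0.161). Without both replicates 5 it was 0.34 ± 0.08 (adjusted p = 0.237), and without WT replicate 1, the library with skeletal muscle markers, it was 0.33 ± 0.22.

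Xirp1 (Xin, an actin-binding protein of the intercalated disc) and Ttn completed the 4 members with the smallest p in Dp3Tyb. Xirp1 lay at 3761, 3568, 3538, 2743 and 3330.1 in Dp3Tyb and at 3441, 4166, 3493, 3933 and 3796 in WT, a log2 fold change of -0.16 ± 0.09. Dp3Tyb replicates 4 and 5 lay below every WT heart. Ttn (chr2:76534136-76812891, minus strand) lay at 10929, 11315, 11086, 10418 and 15018 in Dp3Tyb and at 10410.0, 15271, 11995, 13846 and 17399 in WT, a log2 fold change of -0.22 ± 0.15. In both genotypes replicate 5 was the highest.

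**Figure D2:**
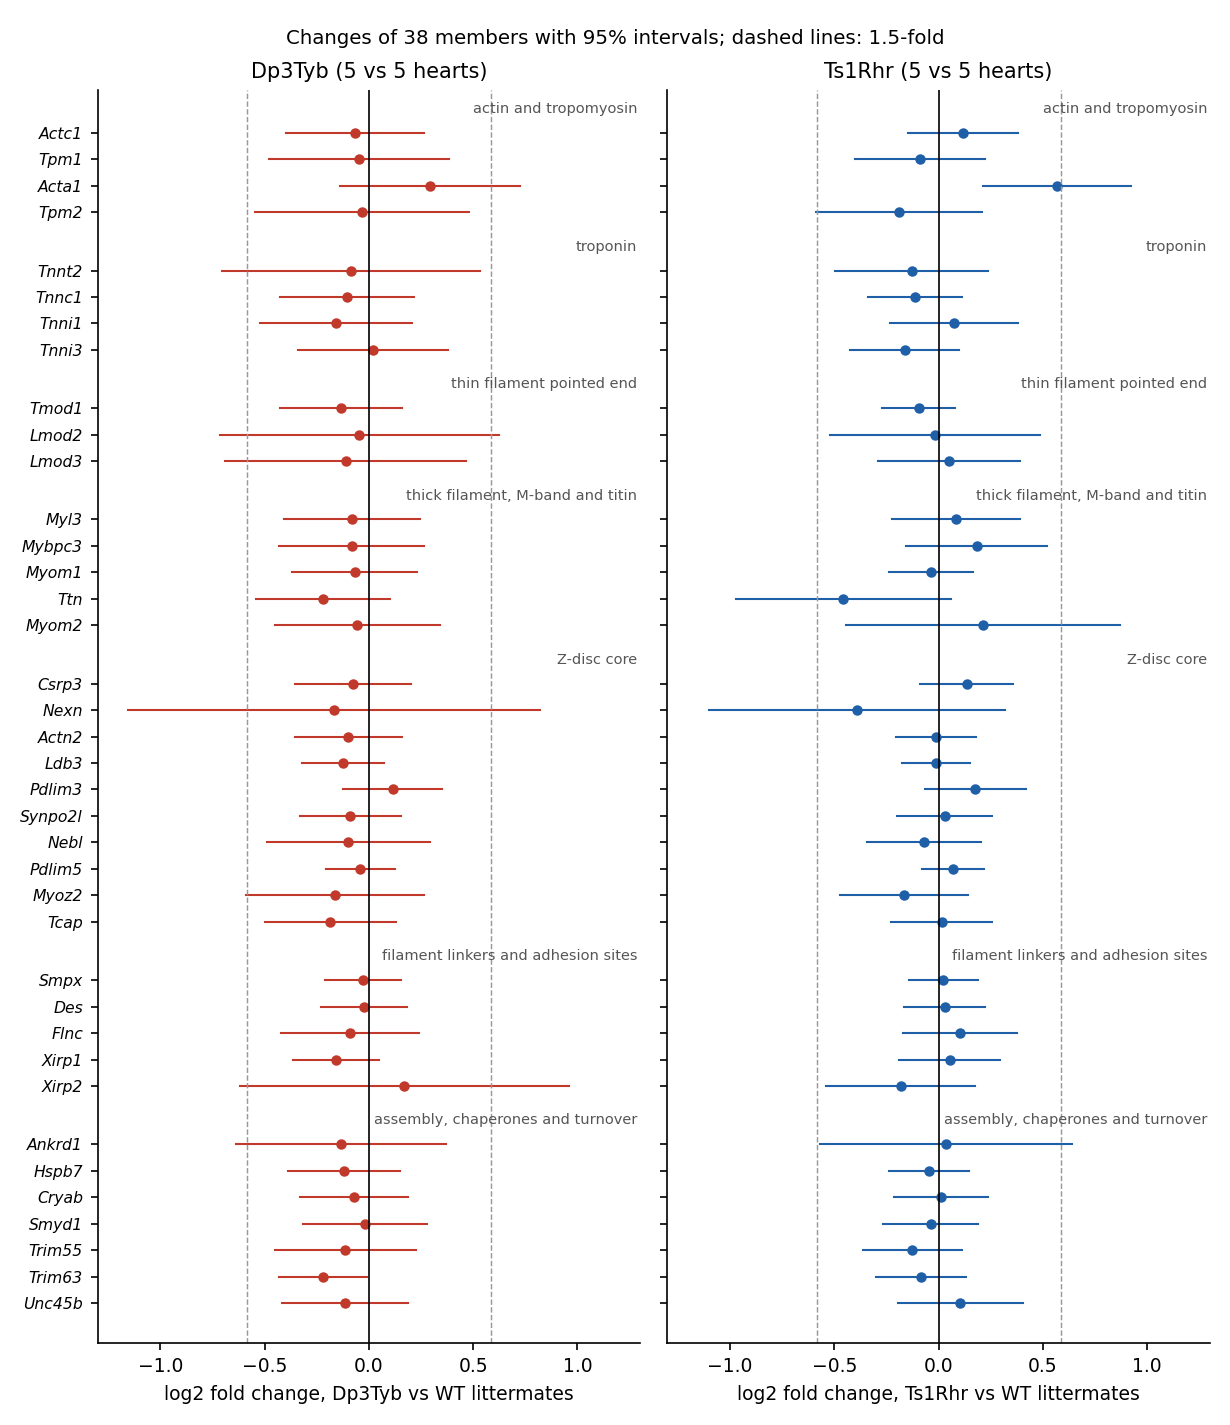
Log2 fold change of each of the 38 members in Dp3Tyb and in Ts1Rhr against WT littermates, with 95% intervals from limma, a line at 0 and dashed lines at 1.5-fold in either direction. Every interval is drawn, Nexn has the widest in both strains, and Acta1 lies farthest above 0 in both, at 0.29 and 0.57.

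The second comparison asked the same of Ts1Rhr. No member passed the test in Ts1Rhr hearts, where 0.0269% of all 14867 genes did, and the smallest adjusted p was 0.795. At an unadjusted p under 0.05 there was 1 member, Acta1, against 5.52% of all genes. The groups of every member overlapped (1.12% of all genes did not), and edgeR and DESeq2 called 0 members. Here 19 of 38 changes were below 0, against 50.4% of all genes, with a median of 0.000089. The balance moved with single libraries, at 14 of 38 without Ts1Rhr replicate 4 or without replicate 5 and 26 without Ts1Rhr replicate 1. It also moved with the fit, at 26 with the cardiomyocyte marker level as a term and 27 with weights per library. With that marker term 6 members had an unadjusted p under 0.05 by limma and 0 passed. The share of all genes at that unadjusted p is not given here, so the 6 cannot be set against a background. By structure 2 of 4 actin and tropomyosin, 3 of 4 troponin, 2 of 3 pointed-end, 2 of 5 thick filament, M-band and titin, 5 of 10 Z-disc, 1 of 5 linker and 4 of 7 assembly and turnover genes were below 0.

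Acta1 had the smallest p of all members in Ts1Rhr. It lay at 2458, 2011, 3646, 2093 and 2508 in Ts1Rhr and at 1601, 1912, 2119, 1346 and 1506 in WT. Ts1Rhr replicates 1, 3 and 5 lay above every WT heart, and replicates 2 and 4 lay above every WT heart but replicate 3. The means were 2543 ± 654 and 1697 ± 314, the log2 fold change was 0.57 ± 0.16 (95% interval 0.22 to 0.92), the unadjusted p was 0.00431 and the adjusted p was 0.795. Across 21 alternative fits and left-out hearts it stayed between 0.37 (with weights per library) and 0.65, and DESeq2 gave the smallest adjusted p, 0.214. In the 5 hearts with at most 10% mitochondrial share it was 0.58 ± 0.29 (unadjusted p = 0.106). In Dp3Tyb the 21 alternatives gave 0.17 (without WT replicate 5) to 0.47 (without Dp3Tyb replicate 5). Comparing the strains by these numbers needs the test of the difference, which is given below.

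The share of Acta1 in the reads of the actin pair does not depend on how libraries are scaled, and it was examined after these values had been seen. It was 2.55, 2.60, 2.56, 2.92 and 2.0% in Dp3Tyb and 2.15, 1.85, 2.04, 2.09 and 1.72% in WT. In Ts1Rhr it was 2.47, 2.43, 2.77, 2.16 and 2.77%, and in WT 1.81, 2.04, 2.06, 1.72 and 1.63%. Every Ts1Rhr heart lay above every WT littermate, and in Dp3Tyb every heart but replicate 5 did. How often other pairs of genes separate in this way was not examined, so the separation has no background to be set against. As a description with no test, the group means were 2.53 ± 0.33% and 1.97 ± 0.18% for Dp3Tyb and its WT group, and 2.52 ± 0.26% and 1.85 ± 0.19% for Ts1Rhr and its WT group (SD, n = 5).

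Actc1 itself, the main sarcomeric actin of the heart, gave estimates near 0 in both strains. It lay at 104848, 107602, 108509.8, 75882 and 72282 in Dp3Tyb and 96501, 106774, 95096, 109503 and 78535 in WT, and at 97159, 80686, 127779.8, 94899 and 87970.0 in Ts1Rhr and 86644, 91865, 100636, 77013 and 90736 in WT. Its log2 fold changes were -0.07 ± 0.15 and 0.12 ± 0.12. In the Dp3Tyb cohort replicate 5 of WT and replicates 4 and 5 of Dp3Tyb were low, and in the Ts1Rhr cohort WT replicate 4 was lowest.

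Ttn had the second smallest p in Ts1Rhr. It lay at 20071, 12769, 10471, 9764 and 8748 in Ts1Rhr and at 19172, 16501, 14012, 23352 and 10771 in WT. Replicate 1 was high in Ts1Rhr and replicate 5 low in WT, so the groups overlapped, with 3 Ts1Rhr hearts below every WT heart. The log2 fold change was -0.46 ± 0.24 (95% interval -0.97 to 0.06, unadjusted p = 0.0770), on means of 12364 ± 4555 and 16762 ± 4816. It stayed below 0 in 21 of 21 alternatives, at -0.65 to -0.26.

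Pdlim3 (ALP, an alpha-actinin-binding Z-disc protein) and Tnni3 followed. Pdlim3 lay at 2793, 2424, 2719, 2125 and 1979 in Ts1Rhr and at 2130.4, 2384, 2126, 2251 and 1727 in WT, a log2 fold change of 0.18 ± 0.11. Tnni3 lay at 6707, 6244, 5719.9, 4948 and 4681 in Ts1Rhr and at 6108, 6120.2, 5469, 8044 and 5904 in WT, a log2 fold change of -0.16 ± 0.12. For Pdlim3, Ts1Rhr replicates 1, 2 and 3 lay above every WT heart and replicates 4 and 5 below the WT median, while in the Dp3Tyb cohort Pdlim3 lay at 2601, 2098, 2118, 1867 and 2438 in Dp3Tyb and 1871, 2142, 1733, 2258 and 2258 in WT, a log2 fold change of 0.11 ± 0.11. For Tnni3 WT replicate 4 was the highest of the 10.

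**Figure D3:**
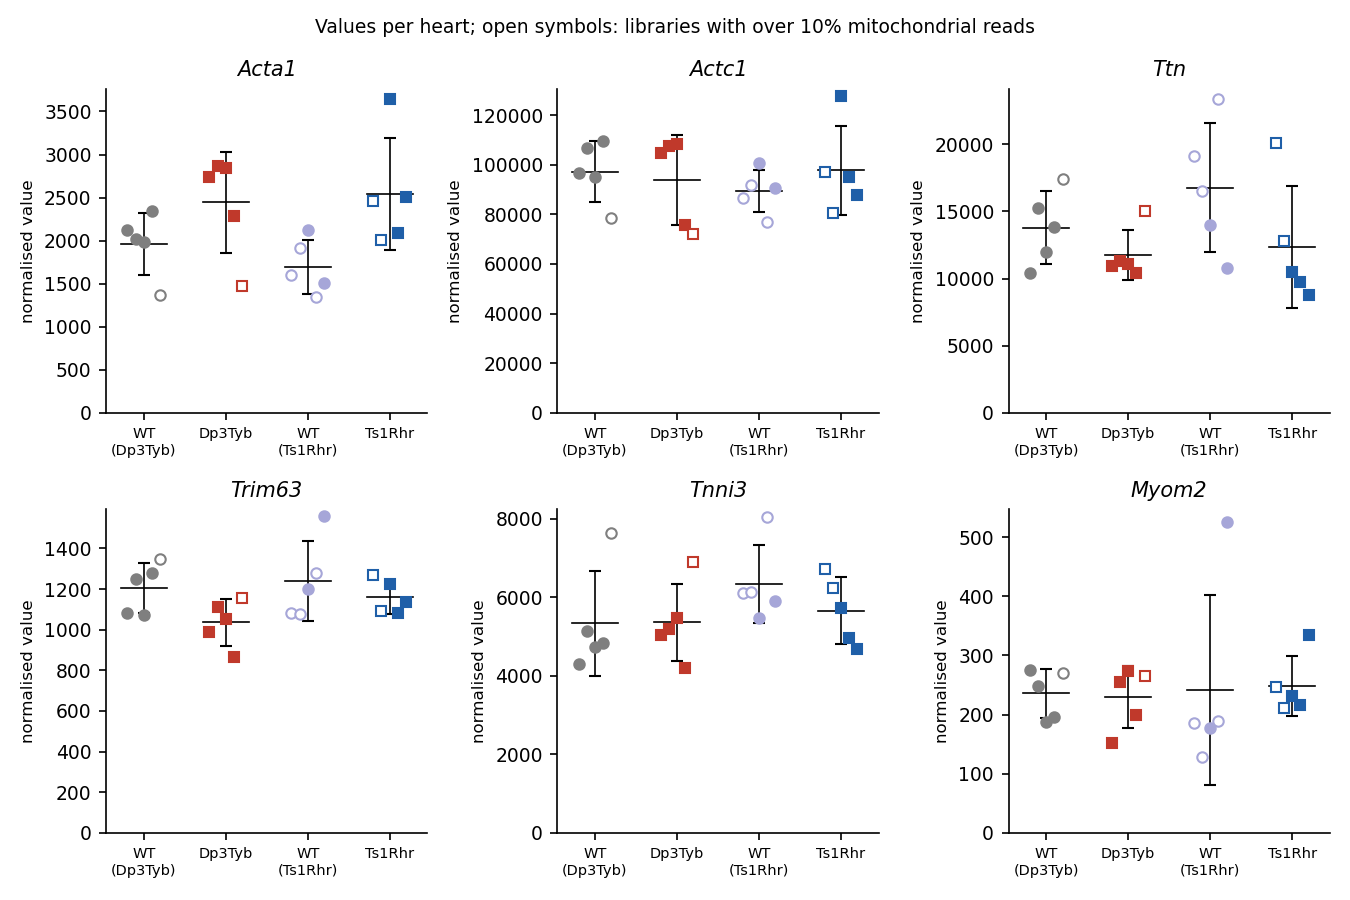
Normalised read count in each heart for Acta1, Actc1, Ttn, Trim63, Tnni3 and Myom2, by group, with the mean as a line, the SD as a bar and open symbols for the 7 libraries with a mitochondrial share over 10%. Acta1 means are 2543 in Ts1Rhr and 1697 in WT, and Myom2 has 1 high heart at 526.

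The third comparison tested whether the change in Dp3Tyb differed from that in Ts1Rhr. No member passed, where 0.0130% of all 15348 genes did, and none had an unadjusted p under 0.05, against 1.52% of all genes. The difference (Dp3Tyb minus Ts1Rhr) was below 0 for 27 of 38 members, against 49.6% of all genes, with a median of -0.08. This count was not stable, at 14 with weights per library, 18 with the cardiomyocyte marker level as a term, 21 without WT of the Dp3Tyb cohort replicate 5, 21 without Dp3Tyb replicate 4 and up to 35 without Dp3Tyb replicate 5. The 4 smallest p belonged to Xirp1 (-0.21 ± 0.15, unadjusted p = 0.179), Csrp3 (-0.21 ± 0.17, unadjusted p = 0.225), Mybpc3 (-0.26 ± 0.23, unadjusted p = 0.272) and Pdlim5 (-0.11 ± 0.10, unadjusted p = 0.276), all of them p from limma before adjustment. For Acta1 the difference was -0.27 ± 0.27 (95% interval -0.84 to 0.29, unadjusted p = 0.325 by limma), so a difference between the strains was not shown.

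In each of these the direction was set by values that overlapped in both cohorts. Xirp1 lay at 4080.3, 3729, 4077, 3297 and 3271 in Ts1Rhr and at 3504, 3983, 3773, 3927 and 2691 in WT, where replicate 5 was low. Csrp3 lay at 5951, 5314, 5387, 4525 and 4052 in Dp3Tyb and 5567, 5834, 4630.0, 6164 and 4383 in WT, and at 5608, 4269, 6326, 5225 and 5282 in Ts1Rhr and 4537, 4453, 4996, 4572 and 5659 in WT. The lowest Csrp3 value of the 20 was that of Dp3Tyb replicate 5 and the highest that of Ts1Rhr replicate 3.

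Mybpc3 lay at 25746, 28318, 27456, 21176 and 18260.3 in Dp3Tyb and 25251, 29421, 25259, 29689 and 18468 in WT, and at 23901, 19790.1, 33148, 24095 and 24530.3 in Ts1Rhr and 19277, 21519, 24949, 16728 and 28472 in WT. Pdlim5 lay at 4867, 4583, 4511, 3863 and 4180.4 in Dp3Tyb and 4287, 4540.0, 4255, 4625 and 4877 in WT, and at 4701, 3988, 5075, 4245 and 4288 in Ts1Rhr and 4210.0, 4185, 4223, 4341 and 4217 in WT. Ts1Rhr replicate 3 was the highest of the Ts1Rhr cohort for both genes.

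The size of change that these hearts could still hold was read from the 95% intervals. They lay within 1.5-fold in either direction for 30 of 38 members in Dp3Tyb, 32 in Ts1Rhr and 20 for the difference, and within 2-fold for 37, 37 and 35. The median distance from the estimate to the end of its interval was 0.32, 0.26 and 0.42 on the log2 scale. The widest belonged to Nexn, with -1.15 to 0.82 in Dp3Tyb and -1.10 to 0.32 in Ts1Rhr, so a 2-fold lower level lay inside the interval in both strains. With the mitochondrial share as a term, described below, the estimates of Nexn were -0.11 ± 0.04 and -0.08 ± 0.05, far from a 2-fold change.

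The baselines of the cohorts were compared directly between the 2 WT groups. No member passed by limma, edgeR or DESeq2 (0.00% of all genes passed by limma), and none had an unadjusted p under 0.05, against 5.84% of all genes. With weights per library in limma the call changed, and 9 members (23.7%) and 21.5% of all genes passed. The log2 differences were below 0 for 16 of 38 members, against 49.1% of all genes, and the groups of 0 members did not overlap, against 0.977%. The count below 0 was not stable. It was 24 with the mitochondrial share as a term and 24 without WT of the Dp3Tyb cohort replicate 3. Without WT of the Ts1Rhr cohort replicate 4 it was 22, and without WT of the Dp3Tyb cohort replicate 5 it was 13. The smallest p belonged to Tnni3, with a log2 difference of 0.27 ± 0.15 (WT of the Ts1Rhr cohort minus WT of the Dp3Tyb cohort, unadjusted p = 0.0942).

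The remaining landmark members, chosen for their place in the sarcomere, did not pass in either strain. Tnnt2 lay at 36331, 39526, 39835, 29840.0 and 70039.6 in Dp3Tyb and 34483, 40425, 34452, 38631 and 86245 in WT, and at 61276, 59233, 45173, 39387 and 38075 in Ts1Rhr and 52765, 50531, 43823, 73393 and 44936 in WT. Its log2 fold changes were -0.08 ± 0.28 and -0.13 ± 0.17, and the highest values were those of libraries with a mitochondrial share over 10%. Tnni1 lay at 11286, 11824, 11518, 9293 and 7419.6 in Dp3Tyb and 11464, 13126, 11326, 13473 and 7974 in WT, and at 10894, 8578, 14049, 10658 and 9739 in Ts1Rhr and 9608, 9678, 11025, 8044 and 12791 in WT. In the Dp3Tyb cohort its lowest values were those of both replicates 5, the hearts in which Tnnt2 was highest.

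Tnni3 in the Dp3Tyb cohort lay at 5032, 5182, 5474, 4206 and 6892 in Dp3Tyb and 4296, 5142, 4731, 4845 and 7639 in WT, a log2 fold change of 0.02 ± 0.16. Actn2 (alpha-actinin, the main cross-linker of the Z-disc) lay at 16299, 18999.9, 19379, 14266 and 19593 in Dp3Tyb and 16241, 19559, 17165, 19306 and 22358 in WT, and at 19447, 18739, 21583, 16332 and 16371 in Ts1Rhr and 16978, 18968, 17969, 20148 and 18839.7 in WT. Its log2 fold changes were -0.10 ± 0.12 and -0.01 ± 0.09, with Dp3Tyb replicate 4 the lowest of its cohort.

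Des (desmin, the intermediate filament that links Z-discs) lay at 7427, 7968, 8457, 6256 and 8132 in Dp3Tyb and 6958, 8131, 7188, 8070.2 and 8353 in WT, and at 9204, 8108, 9462, 7356 and 7256 in Ts1Rhr and 7809, 8464, 7687, 8900.0 and 7535 in WT. Tcap (telethonin, the cap of titin in the Z-disc) lay at 457, 389, 337, 269 and 449 in Dp3Tyb and 466, 456, 369, 432 and 405 in WT, and at 576, 441, 534, 374 and 439 in Ts1Rhr and 506, 475, 463, 415 and 455 in WT. Dp3Tyb replicate 4 had the lowest value of the 20 for both genes. Log2 fold changes were -0.02 ± 0.09 and 0.03 ± 0.09 for Des and -0.18 ± 0.14 and 0.02 ± 0.11 for Tcap, in Dp3Tyb and Ts1Rhr.

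Ankrd1 lay at 12920.3, 10943, 11371, 8338 and 15027 in Dp3Tyb and 14002, 11227, 8712, 10841 and 21477 in WT, and at 15639, 13757, 12836, 9872 and 11428 in Ts1Rhr and 14325, 12769.8, 13664, 20409 and 5394 in WT, with log2 fold changes of -0.13 ± 0.23 and 0.04 ± 0.28. The estimate in Ts1Rhr turned below 0 in 6 of 21 alternatives and ran from -0.26 (without WT replicate 5) to 0.40 (without libraries over 10% mitochondrial share). The highest heart of all 20 was a WT heart of the Dp3Tyb cohort and the lowest a WT heart of the Ts1Rhr cohort, so WT hearts spanned the whole range. Myom2 lay at 152, 256, 274, 199.8 and 266 in Dp3Tyb and 276, 249, 188, 197 and 270.1 in WT, and at 247, 212, 232, 216 and 335 in Ts1Rhr and 186, 128, 176, 189 and 526 in WT. Its log2 fold changes were -0.05 ± 0.18 (95% interval -0.45 to 0.34) and 0.21 ± 0.30 (-0.44 to 0.87), and in Ts1Rhr it ran from -0.25 (without libraries over 10% mitochondrial share) to 0.54 (without WT replicate 5). That WT heart had more Myom2 than any other, and the same library had the highest level of muscle creatine kinase (Ckm), at 2744.

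The other members of the thin filament did not pass in either strain, and their groups overlapped. Tpm1, the main cardiac tropomyosin, had means of 28506 ± 6147 in Dp3Tyb, 29955 ± 9679 in its WT group, 32342 ± 5452 in Ts1Rhr and 34501 ± 6688 in its WT group (SD, n = 5 here and in the next values), with log2 fold changes of -0.05 ± 0.20 and -0.09 ± 0.14 in Dp3Tyb and Ts1Rhr. Tpm2, beta-tropomyosin, had 3041 ± 892 in Dp3Tyb, 3172 ± 1251 in its WT group, 3339.7 ± 728 in Ts1Rhr and 3854 ± 1088 in its WT group, or -0.03 ± 0.23 and -0.19 ± 0.18. For Tnnc1 the values were 10184 ± 1691 in Dp3Tyb, 11008 ± 2237 in its WT group, 11228 ± 1724 in Ts1Rhr and 12051 ± 998 in its WT group, or -0.11 ± 0.15 and -0.11 ± 0.10. All 3 estimates were below 0 in both strains, at a distance close to their own SE or less. At the pointed end, where filament length is set, Tmod1 (tropomodulin, the cap) had 4216 ± 564 in Dp3Tyb, 4652 ± 894 in its WT group, 4503 ± 515 in Ts1Rhr and 4795 ± 278 in its WT group, or -0.13 ± 0.13 and -0.10 ± 0.08. The leiomodin Lmod2, which lengthens filaments, had 1564 ± 571 in Dp3Tyb, 1676 ± 892 in its WT group, 1679 ± 436 in Ts1Rhr and 1733 ± 535 in its WT group, or -0.04 ± 0.30 and -0.02 ± 0.23. Its relative Lmod3 had 484 ± 152 in Dp3Tyb, 534 ± 219 in its WT group, 554 ± 101 in Ts1Rhr and 539 ± 128 in its WT group, or -0.11 ± 0.26 and 0.05 ± 0.16. The SE of both leiomodins was larger than the estimate in both strains.

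In the thick filament and M-band, Myl3 (a ventricular essential light chain) had 12694 ± 2245 in Dp3Tyb, 13385 ± 2174 in its WT group, 13070.1 ± 2602 in Ts1Rhr and 12269 ± 1879 in its WT group, or -0.08 ± 0.15 and 0.08 ± 0.14. Myom1 (myomesin, which cross-links myosin at the M-band) had 14869 ± 2284 in Dp3Tyb, 15633 ± 2822 in its WT group, 15614 ± 1975 in Ts1Rhr and 15939 ± 1122 in its WT group, or -0.07 ± 0.14 and -0.04 ± 0.09. Neither differed by as much as 1 SE in either strain. In the Z-disc, Ldb3 (ZASP or cypher, bound to alpha-actinin) had 7647 ± 799 in Dp3Tyb, 8311 ± 611 in its WT group, 8178 ± 627 in Ts1Rhr and 8254 ± 649.9 in its WT group, or -0.12 ± 0.09 and -0.01 ± 0.07. Nebl (nebulette) had 9115 ± 1832 in Dp3Tyb, 9855 ± 2636 in its WT group, 9318 ± 1371 in Ts1Rhr and 9799 ± 1538 in its WT group, or -0.10 ± 0.18 and -0.07 ± 0.13. Both estimates for Ldb3 and Nebl were within 2 SE of 0 in each strain. Myoz2 (calsarcin, which tethers calcineurin) had 1578 ± 347 in Dp3Tyb, 1789 ± 547 in its WT group, 1737 ± 314 in Ts1Rhr and 1948 ± 373 in its WT group, or -0.16 ± 0.19 and -0.16 ± 0.14, and Synpo2l had 6205 ± 797 in Dp3Tyb, 6587 ± 780.1 in its WT group, 6383 ± 788 in Ts1Rhr and 6262 ± 820.0 in its WT group, or -0.09 ± 0.11 and 0.03 ± 0.10. Nexn had 8723 ± 5249 in Dp3Tyb, 10964 ± 9868 in its WT group, 9522 ± 3987 in Ts1Rhr and 12664 ± 6126 in its WT group, or -0.17 ± 0.45 and -0.39 ± 0.33, and its SD was close to its mean in WT of the Dp3Tyb cohort.

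Among the linkers, Flnc (filamin C, an actin cross-linker) had 8884 ± 1315 in Dp3Tyb, 9527 ± 1745 in its WT group, 9219.7 ± 1347 in Ts1Rhr and 8629 ± 1446 in its WT group, or -0.09 ± 0.15 and 0.10 ± 0.13. Smpx had 4047 ± 405 in Dp3Tyb, 4122 ± 309 in its WT group, 3991 ± 424 in Ts1Rhr and 3912 ± 181 in its WT group, or -0.03 ± 0.08 and 0.02 ± 0.08. Xirp2 had 70.6 ± 38.1 in Dp3Tyb, 62.8 ± 34.7 in its WT group, 70.1 ± 13.8 in Ts1Rhr and 79.3 ± 13.3 in its WT group, or 0.17 ± 0.36 and -0.18 ± 0.16. Of the linkers, Smpx thus had the smallest SE in both strains and Xirp2, on few reads, the largest. Of the assembly genes, Smyd1 (a methyltransferase needed for myosin assembly) had 6009 ± 958 in Dp3Tyb, 6078 ± 996 in its WT group, 5947 ± 762 in Ts1Rhr and 6097 ± 742 in its WT group, or -0.02 ± 0.13 and -0.04 ± 0.11, and Unc45b (the myosin chaperone) had 2878 ± 436 in Dp3Tyb, 3124 ± 497 in its WT group, 2978 ± 525 in Ts1Rhr and 2773 ± 487 in its WT group, or -0.12 ± 0.14 and 0.10 ± 0.14. The small heat shock proteins followed, Cryab with 3493 ± 438 in Dp3Tyb, 3679 ± 560.2 in its WT group, 3723 ± 496 in Ts1Rhr and 3683 ± 448 in its WT group, or -0.07 ± 0.12 and 0.01 ± 0.10, and Hspb7 with 10802 ± 1821 in Dp3Tyb, 11604 ± 852 in its WT group, 12259.8 ± 1608 in Ts1Rhr and 12584 ± 548 in its WT group, or -0.12 ± 0.12 and -0.05 ± 0.09. Trim55 (MuRF2, a relative of Trim63) had 3749.7 ± 591 in Dp3Tyb, 4090.2 ± 978 in its WT group, 3825 ± 433 in Ts1Rhr and 4196 ± 687 in its WT group, or -0.11 ± 0.15 and -0.13 ± 0.11. Of these 7 genes Trim63 alone had an unadjusted p under 0.05, in Dp3Tyb.

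Of the other 56 genes of the sarcomere and its relatives on a wider list, 52 had values high enough to be tested in each strain. In Dp3Tyb 1 of them passed and fell, against 0.0542% of all genes, and the median was -0.05. The wider list was chosen with earlier results of these data known, so a gene passing on it does not speak for the list. In Ts1Rhr 0 passed, 2 had an unadjusted p under 0.05, a smaller share than the 5.52% of all genes, and the median was -0.02. The gene that passed was Ky, which codes for a Z-disc-associated protein of skeletal muscle, with a log2 fold change of -1.21 ± 0.17 (adjusted p = 0.0415). In Ts1Rhr Ky was at -0.90 ± 0.20 (adjusted p = 0.455), the difference between the strains was -0.31 ± 0.27, and in both strains every heart lay below every WT littermate. Ky lay at 44.3 to 78.2 in Dp3Tyb against 105 to 156 in WT, and at 49.0 to 70.7 in Ts1Rhr against 81.4 to 180.3 in WT. The myosin heavy chains of the heart did not pass, with Myh6 at 0.03 ± 0.14 and 0.05 ± 0.13 and Myh7 at -0.18 ± 0.17 and -0.02 ± 0.12, in Dp3Tyb and Ts1Rhr.

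Hearts of 1 group also differed from each other with the mitochondrial share. A slope of log2 value on the share, with the 4 group means kept in the fit of 20 libraries, passed at an adjusted p under 0.05 for 28 of 38 members (73.7%). Over all 15348 genes 61.4% passed, so a slope is the rule in these libraries and not particular to sarcomere genes. Of the members 20 rose (52.6%, against 29.7% of all genes) and 8 fell (21.1%, against 31.7%) with the share. The median absolute slope was 0.40 log2 units per 10 percentage points, against 0.27 over all genes. Most libraries over 10% also held fewer reads than most of the others. The highest share, 19.5%, was in the library with the fewest reads, 6.60 M, and Dp3Tyb replicate 5 had 15.5% at 12.47 M. Not all libraries followed this, with 13.1% at 17.02 M in Ts1Rhr replicate 2 and 4.85% at 12.15 M in WT of the Dp3Tyb cohort replicate 1. Depth was not a term in these fits, and its part in the slopes was not tested.

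The members that rose were led by Nexn at 1.51 ± 0.04 per 10 percentage points (2.84-fold), Lmod2 at 0.97 ± 0.10, Xirp2 at 0.91 ± 0.12, Tnnt2 at 0.84 ± 0.06, Tpm2 at 0.79 ± 0.04, Ankrd1 at 0.75 ± 0.17, Lmod3 at 0.74 ± 0.08 and Tpm1 at 0.61 ± 0.04. Thus all 3 pointed-end genes (Lmod2, Lmod3 and Tmod1) and both tropomyosins rose. Myoz2, Ttn, Nebl, Tnni3, Trim55, Tnnc1, Myom1, Smyd1, Tmod1, Cryab, Synpo2l and Actn2 rose by 0.18 to 0.58. Those that fell were Acta1 (-0.51 ± 0.12, not passing on the Ts1Rhr cohort alone), Mybpc3 (-0.48 ± 0.08), Tnni1 (-0.48 ± 0.07), Flnc (-0.44 ± 0.06), Unc45b (-0.43 ± 0.06), Myl3 (-0.41 ± 0.08), Actc1 (-0.31 ± 0.08) and Csrp3 (-0.28 ± 0.07). The 10 members that did not pass were Pdlim3, Des, Hspb7, Xirp1, Trim63, Tcap, Ldb3, Pdlim5, Smpx and Myom2, at -0.07 to 0.19.

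**Figure D4:**
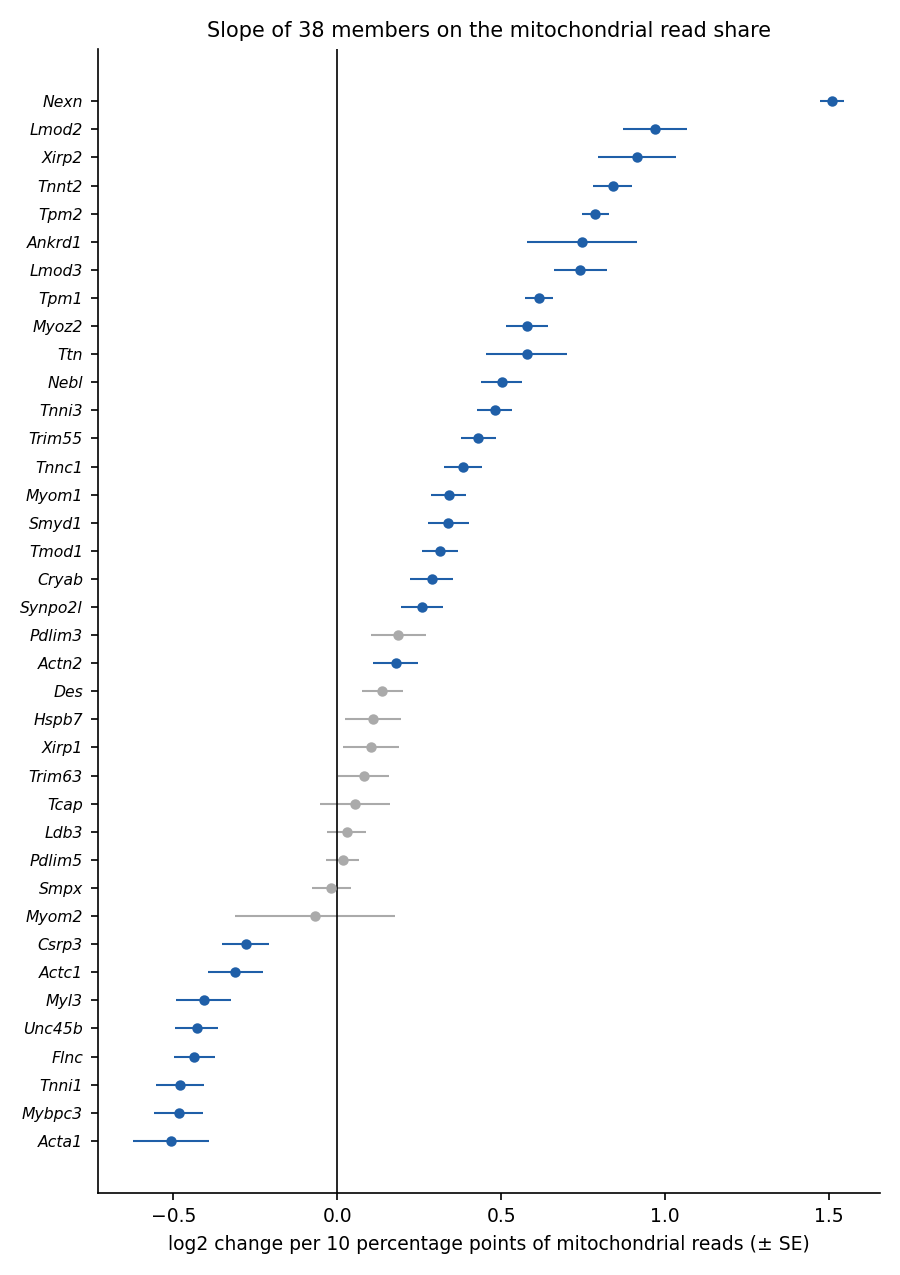
Slope of log2 value on the mitochondrial share, in log2 units per 10 percentage points, for each of the 38 members, with bars for the SE and blue for an adjusted p under 0.05. The slopes run from -0.51 for Acta1 to 1.51 for Nexn, with 20 members above and 8 below 0 among those that passed.

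Subunits of 1 structure thus moved apart. Both actins fell while both tropomyosins rose, and of the troponins Tnnt2, Tnnc1 and Tnni3 rose while Tnni1 fell. Nexn lay at 11918 to 28611 in the 7 libraries with a share over 10% and at 5474 to 8264 in the other 13. For 10 members (26.3%: Tmod1, Tnnc1, Tnni3, Tpm1, Lmod3, Tpm2, Tnnt2, Xirp2, Lmod2 and Nexn) all 7 lay above all 13, against 8.40% of all genes, and for 0 did all 7 lie below, against 6.45%. Among those that fell the ranges overlapped, as for Mybpc3 at 16728 to 23901 against 21176 to 33148 and Tnni1 at 7419.6 to 10894 against 9293 to 14049.

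The share of Tnni3 in the troponin I level per kb was 42.6% to 54.7% in the 7 libraries and 30.3% to 37.4% in the other 13, with no overlap. By group its mean was 38.8 ± 7.86% in Dp3Tyb and 36.1 ± 9.85% in WT, and 39.0 ± 5.59% in Ts1Rhr and 42.9 ± 7.41% in WT (SD, n = 5), so the genotypes overlapped.

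**Figure D5:**
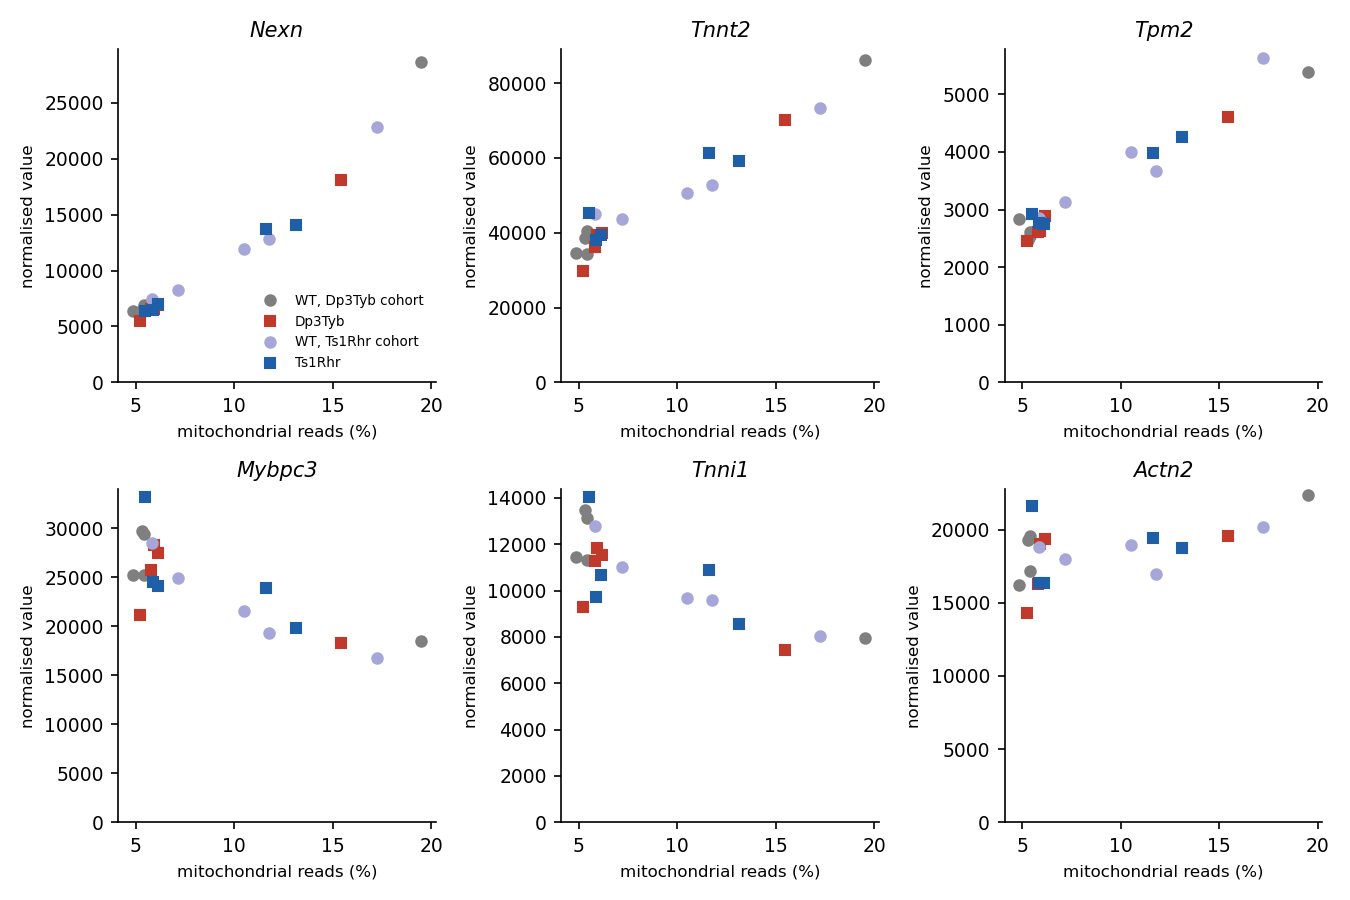
Normalised read count of Nexn, Tnnt2, Tpm2, Mybpc3, Tnni1 and Actn2 against the mitochondrial share (percent of reads), with 1 point for each of 20 hearts, coloured by group. Nexn, Tnnt2 and Tpm2 rise and Mybpc3 and Tnni1 fall with the share, while Actn2 has a slope of 0.18 per 10 percentage points.

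Fitted on the 10 Dp3Tyb and WT libraries alone, 29 members passed (76.3%, against 57.8% of all genes), the 28 and Trim63. On the 10 Ts1Rhr and WT libraries 25 passed (65.8%, against 37.98%), and without the shallowest library 27 passed (71.1%, against 52.1%). The 28 members kept their sign in these fits, but 3 did not pass on the Ts1Rhr cohort, namely Acta1 (-0.39, adjusted p = 0.217), Actc1 (-0.31, adjusted p = 0.0566) and Actn2 (0.09, adjusted p = 0.509). Actn2 also did not pass without the shallowest library (adjusted p = 0.208). Across members the slope went with the GC content of the canonical transcript (Pearson r = -0.43, Spearman rho = -0.41, n = 38 genes, which share the same libraries), and across all genes the values were -0.40 and -0.46 (n = 15217).

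With the mitochondrial share as a term in the strain comparisons, 0 members passed, where 0.305% of all genes did in Dp3Tyb and 0.168% in Ts1Rhr. The median SE of the members was 0.07 in place of 0.15 for Dp3Tyb and 0.08 in place of 0.12 for Ts1Rhr. By limma, 5 members had an unadjusted p under 0.05 in Dp3Tyb (13.2%, against 11.0% of all genes), with Trim63 at -0.21 ± 0.07 (unadjusted p = 0.00773), Acta1 at 0.27 ± 0.10 (unadjusted p = 0.0212), Nexn at -0.11 ± 0.04, Ttn at -0.21 ± 0.09 and Tnni1 at -0.18 ± 0.08. By the same limma fit there were 3 in Ts1Rhr (7.89%, against 7.53%), with Lmod3 at 0.19 ± 0.06 (unadjusted p = 0.00852), Acta1 at 0.49 ± 0.17 (unadjusted p = 0.0218) and Pdlim3 at 0.23 ± 0.10. Acta1 was the member found in both, but both counts lay near the shares of all genes. The share of all genes found in both strains was not examined. For the difference between the strains 0 members passed, against 0.0195% of all genes, and 0 had an unadjusted p under 0.05, against 3.56%.

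Several members overlap other genes in the annotation, and how the counting used strand is not given in the sources used here. Nexn (chr3:151940103-151972066) overlaps Fubp1 on the other strand over 2367 bases, and Tmod1 overlaps Tstd2 over 1305. Unc45b, Cryab, Tnni3, Myl3 and Myom1 also overlap a neighbour. Their values are uncertain to the extent that reads were shared.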

How the data were processed

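Poly(A)-selected RNA of 20 whole E13.5 hearts, snap frozen, was sequenced by the authors on an Illumina HiSeq instrument. The submitters' processing notes name Trimmomatic 0.36, STAR 2.5.2a, RSEM 1.2.31, DESeq2, DESeq and build GRCm38. The counting annotation and use of strand are not given in the sources used here. The authors deposited 1 table of normalised values (a signal, in reads divided by a library factor) for 48795 genes. In each library 100% of values were whole multiples of 1 step (tolerance 1e-06), and the median-of-ratios size factors recomputed over all 20 libraries matched these steps, so whole reads were recovered. Scaling is relative to the bulk of genes and would not show a change shared by most of them.

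Members were tested by limma 3.58.1 (R 4.3.3, trended and robust prior, 2-sided) on log2(value + 1), for genes that reached a value of 10 in 5 or more libraries of the fit, with Benjamini-Hochberg adjustment over all genes at 0.05. Cohorts were fitted alone (10 libraries), and contrasts between cohorts in all 20. Log2 fold changes are on that scale, with their SE. edgeR 4.0.16 and DESeq2 1.42.0 were run on the recovered reads as alternatives. Symbols, positions and lengths came from GENCODE vM39 (GRCm39), which held 91.3% of identifiers, and promoters from RefSeq (GRCm38.p6). Values in every library are given for the 4 members with the smallest p in each of 3 comparisons, members called in any comparison (0), and landmark members (Actc1, Tnnt2, Tnni1, Tnni3, Ttn, Actn2, Tcap, Des, Ankrd1 and Myom2). The members and lists were chosen with earlier results of these data known, and the fits on the mitochondrial share, the actin share and the troponin I share were chosen after seeing the data. The labels describe separate hearts, the p-values measure the spread between them, and replicate numbers, given in listed order, only name a library. Scripts were tested on simulated data.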

Additional observations from a re-analysis of the deposited data

Results flagged for a closer look

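Of 68 sets of 5 values examined (17 genes in 4 groups), 8 had a highest or lowest heart far from the other 4, with a gap over 0.71 of the group's range, and chance gives such a gap in about 1 in 20 sets. All 8 were a highest value. In WT of the Dp3Tyb cohort replicate 5 these were Tnnt2 at 86245 and Tnni3 at 7639. Dp3Tyb replicate 5 was high for Tnnt2 at 70039.6 and for Ttn at 15018. WT of the Ts1Rhr cohort replicate 4 was high for Tnni3 at 8044 and for Pdlim5 at 4341. These 6 values lay in 3 libraries with a mitochondrial share of 19.5%, 15.5% and 17.2%. The other 2 were Myom2 at 526 in WT of the Ts1Rhr cohort replicate 5 and at 335 in Ts1Rhr replicate 5, libraries with a share of 5.84% and 5.86%.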

How the results depend on the processing

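No member passed in either strain, or in the difference between the strains, under any alternative run: other pseudocounts, no filter, TMM scaling, DESeq2, edgeR, weights per library, the mitochondrial share or the cardiomyocyte marker level as a term, 1 fit of all libraries (for the 2 strains), no libraries over 10% mitochondrial share, or any heart left out (0 to 0 members). Library weights changed the WT cohort comparison, where 9 members passed (Tpm1, Tpm2, Tnnt2, Tnni1, Tnni3, Mybpc3, Nexn, Xirp2 and Unc45b) against 0 otherwise (0 to 0 with a heart left out). That was 23.7% of members beside 21.5% of all genes, and the cause was not tested. The smallest adjusted p of a member was 0.0831 in Dp3Tyb and 0.207 in Ts1Rhr, both with library weights. The member median of Dp3Tyb ran from -0.097 to -0.026 (from -0.13 to 0.00099 with a heart left out), and that of Ts1Rhr from -0.081 to 0.019 (from -0.044 to 0.048 with a heart left out). Slopes passed for 25 to 29 members and for 37.98% to 61.5% of all genes. Over all genes limma called 8, 4 and 0 and DESeq2 34, 26 and 6 in Dp3Tyb, in Ts1Rhr and between WT cohorts, and limma with the mitochondrial share as a term called 45 and 25 in the strains. No paired analysis was possible because the labels carry no replicate numbers or litters, so which hearts were littermates is not known here. Depth limits Xirp2 most, and 5 hearts a group limit all members.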
